A study of Mus musculus with 4 samples.

Results

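The BCL2 family genes described here are 10 genes that decide whether a cell keeps its mitochondria intact or dies by apoptosis. They were chosen by name, as the rows of the gene count table whose gene symbol was Bcl2, Bcl2l1, Mcl1, Bcl2a1b, Bcl2a1d, Bax, Bak1, Bcl2l11, Bbc3 or Pmaip1. All 10 were found among the 54532 genes of the table, and all 10 had enough counts to be tested. Bulk RNA-seq had been made from alveolar macrophages (AMs), which live in the lung airspaces, of wild-type female mice. As controls there were 2 libraries of mice not inoculated with 4T1 cells, and the tumor group held 2 libraries from mice carrying a primary 4T1 tumor for 2 weeks. 4T1 is a mouse mammary carcinoma line, placed in the mammary fat pad in the methods of the study, which give the mice as BALB/c and 8 to 10 weeks old. The comparison addresses how resident lung macrophages differ when a primary breast tumor grows at a distance, before lung metastases are visible. The methods say that the AMs were purified, and AMs isolated from tumor-bearing mice are described in the study as CD45+ CD11b- CD11c+ SiglecF+. The study speaks of isolated AMs for both staining and RNA-seq and gives the gate with the stained cells. Whether animals were pooled for a library is not stated in the sources used here, so p-values measure only the spread between these libraries, which may be technical.

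BCL2 family proteins fall into 3 roles. Survival proteins (BCL2, BCL-XL, MCL1 and A1) hold back the effectors BAX and BAK, which otherwise open pores in the outer mitochondrial membrane and release cytochrome c. BH3-only proteins (BIM, PUMA and NOXA among the members) are the sensors: they are induced or activated by stress and growth factor loss, and they bind survival proteins in the groove that would otherwise hold effectors. MCL1 and A1 are short-lived proteins on which many myeloid cells depend, so the rate at which their mRNAs are supplied matters more than for the long-lived BCL2.

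The A1 members come with a reading limit that their sequences show. Bcl2a1a, Bcl2a1b and Bcl2a1d are tandem copies on chromosome 9, and their coding sequences of 516 bases each differ at only 12 positions among them. Identity was 97.9% between Bcl2a1a and Bcl2a1b, 98.6% between Bcl2a1a and Bcl2a1d and 98.8% between Bcl2a1b and Bcl2a1d. The first 60 coding bases of each, all in exon 1, are shown from the GENCODE M21 transcripts (build GRCm38) because they hold 6 of the differing positions, in capitals, and so show how few bases can assign a read. They lie at chr9:88957051-88957110 on the plus strand for Bcl2a1a, chr9:89199360-89199419 on the plus strand for Bcl2a1b and chr9:88731660-88731719 on the minus strand for Bcl2a1d.
Bcl2a1a: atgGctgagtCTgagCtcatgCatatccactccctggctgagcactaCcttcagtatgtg
Bcl2a1b: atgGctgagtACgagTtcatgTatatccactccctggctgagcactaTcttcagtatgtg
Bcl2a1d: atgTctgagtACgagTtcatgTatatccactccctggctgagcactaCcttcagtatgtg

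Of all 50-base stretches of the transcript, 57.6% for Bcl2a1b and 79.5% for Bcl2a1d also occurred in another A1 copy. How reads with several matches were treated is not stated in the sources used here, so the split between these copies is uncertain and their sum is given beside them. Counted against any other gene, the portion was 79.2% for Bcl2a1b and 79.5% for Bcl2a1d, and among the other members examined 13.8% for Bax and at most 0.221% for Bcl2, Bcl2l1, Mcl1, Bak1, Bcl2l11 and Bbc3. Exons of 4 members also overlapped other genes. Bcl2a1b shared 49.1% of its exonic bases with the same-strand predicted gene Gm29094, which had 0 or 1 count in each library. Bax shared 12.2% with Gm45808, which had 0 counts, and Bak1 shared 18.2% with the antisense gene Ggnbp1, which had 24 counts in each control library and 45 and 47 in the tumor libraries. Bcl2 shared 6.09% with the antisense gene D630008O14Rik, which had 0 counts in 3 libraries and 2 in the other.

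Total counts were 16167147 to 19205737 per library, and 3 counts, taken as the detection floor, equal 0.153 to 0.190 CPM. CPM express a gene's count relative to the library total, here scaled by edgeR's trimmed mean of M-values (TMM). The 14 AM identity markers were all detected, and their summed level was 16427 to 16572 CPM in the control libraries and 12565 to 12707 CPM in the tumor libraries, with 12 of 14 lower, 1 higher and 1 not past the test (adjusted p under 0.05 in edgeR's quasi-likelihood test). Markers of other cells moved the opposite way. All 10 neutrophil markers were higher, with sums of 10.2 to 10.5 against 3887 to 3926 CPM (Elane, a primary granule protease, was at 0 in both controls). All 5 eosinophil markers were higher (0.480 to 0.507 against 2204 to 2224 CPM; Prg3 at 0 in both controls), as were all 6 basophil and mast cell markers (2.03 to 2.29 against 523.1 to 529.3 CPM; Mcpt8, Fcer1a and Ms4a2 at 0). Of 10 hepatocyte markers 9 were higher and Trf was lower (142.7 to 144.3 against 776.2 to 792.8 CPM; Alb, Ahsg, Ttr, Serpina1c, Fgb, Fga and Apoc3 at 0). Nearly all of the hepatocyte sum in the controls was Trf, at 142.1 and 143.2 CPM. Smaller sums, also higher, were found for B cell markers (4 of 5 tested; 6.62 to 6.91 against 12.7 to 13.6 CPM), T cell markers (3 of 5 tested; 3.89 to 4.50 against 13.3 to 14.5 CPM) and NK cell markers (2 of 2 tested; 1.17 to 1.52 against 5.40 to 5.60 CPM). Dendritic cell markers were mixed (3 higher and 2 lower of 8; 16.2 to 16.3 against 38.8 to 40.6 CPM), and so were monocyte and interstitial macrophage markers (2 higher and 4 lower of 8; 41.9 to 42.2 against 39.7 to 39.8 CPM). The gate above selects cells with CD45 and without CD11b, whereas hepatocytes lack CD45 and neutrophils and eosinophils carry CD11b. The part of these cells in the results on the BCL2 family was not tested. In bulk RNA a smaller number of cells of a type and less RNA per cell cannot be told apart.

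BCL2 family transcripts moved in both directions within each of the survival and BH3-only roles. Between groups, 8 of the 10 members (80.0%) passed the test, 4 higher and 4 lower in the tumor libraries, against a background of 53.8% of the 14256 genes tested, 29.0% higher and 24.8% lower. The median log2 fold change of the members was 0.03, beside 0.02 over all genes, and the median size of change regardless of direction was 0.321 beside 0.320. Only Bcl2 both passed the test and changed at least 2-fold, where 15.9% of all tested genes did. The CPM values of the groups did not overlap for 9 of the 10 members, and for 75.1% of all tested genes. The members thus changed by about as much as genes of the table did in general, in directions that differed from member to member.

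**Figure D1:**
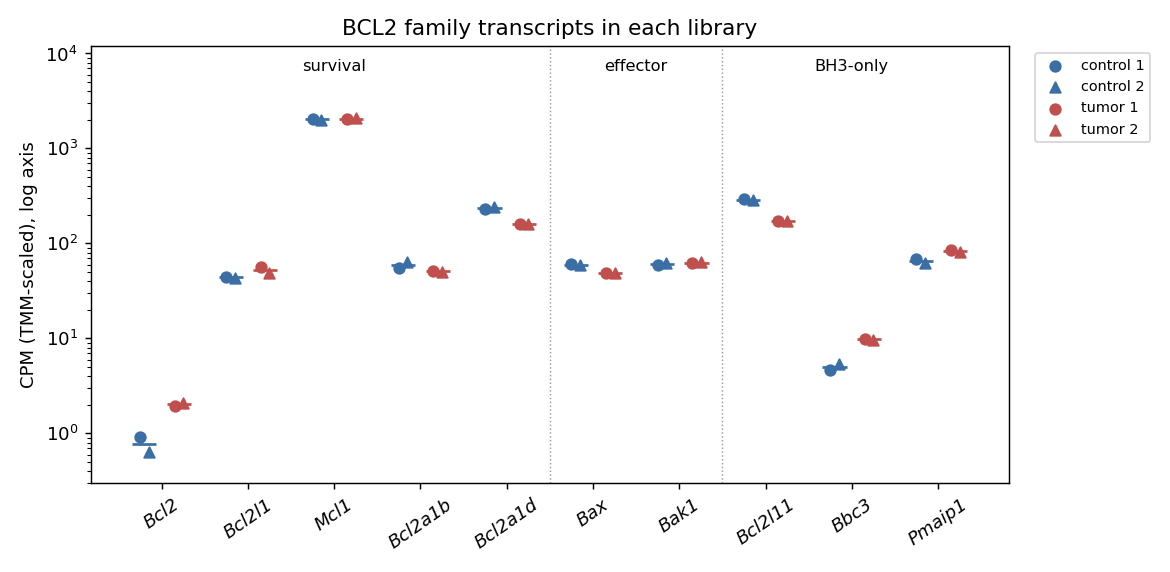
TMM-scaled CPM on a log axis for each of the 10 genes in each library, control libraries in blue and tumor libraries in red, with short lines at the group means. Mcl1 sits near 2019 and 2066 CPM in the 2 groups, while Bcl2l11 and Bcl2a1d are lower and Bbc3, Pmaip1 and Bcl2 are higher in both tumor libraries.

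Among the survival members, Mcl1 was the most abundant single transcript and differed little between groups. Mcl1 (chr3:95658788-95663176, plus strand) had 2044 and 1995 CPM in the control libraries and 2051 and 2082 CPM in the tumor libraries. Both tumor values were above both control values, by a margin smaller than the gap between the 2 controls. The log2 fold change was 0.03 ± 0.0178 (SE) and did not pass the test (adjusted p = 0.121, edgeR). Mcl1 passed the test under 4 of the other settings, and it was 0.10 with total counts as library sizes (adjusted p = 2.64e-05).

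The A1 genes were lower in the tumor libraries. Bcl2a1d (chr9:88723285-88731914, minus strand) had 230.9 and 241.3 CPM in the controls and 159.0 and 161.7 CPM in the tumor libraries. The groups were well apart, and the log2 fold change was −0.56 ± 0.0348 (adjusted p = 7.55e-14, edgeR). Bcl2a1b (chr9:89199209-89207827, plus strand) had 55.3 and 64.0 CPM against 51.5 and 50.6 CPM. The lower control lay close to both tumor libraries, and the log2 fold change of −0.22 ± 0.0677 passed the test (adjusted p = 0.00720) but not without the second control library (−0.14, adjusted p = 0.205) or with total counts as library sizes (−0.15, adjusted p = 0.0565). Scaled on the AM identity genes, Bcl2a1b was higher (0.22, adjusted p = 0.00534).

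Bcl2a1a, Bcl2a1b, Bcl2a1c and Bcl2a1d were also summed into 1 row before the fit, so that the split of counted reads between them does not matter. Any reads with several matches that went uncounted would still be missing. In this row the 4 libraries had 7795, 7056, 5333 and 5863 counts. These equal 431.5 ± 22.1 CPM (SD, n = 2) in the controls and 303.4 ± 6.48 CPM in the tumor group. The sum was lower in both tumor libraries (log2 fold change −0.51 ± 0.0313, adjusted p = 5.6e-14, edgeR). The share of Bcl2a1d in this sum was 55.5% and 54.0% in the controls and 51.6% and 54.1% in the tumor libraries, ranges that overlapped. The share of Bcl2a1b was 13.3% and 14.3% against 16.7% and 16.9%, and these did not. Bcl2a1a, which is no member but the third expressed copy, made up 28.9% to 31.7%, and Bcl2a1c had 0 counts in 3 libraries and 1 in the other.

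The other survival genes, Bcl2l1 and Bcl2, had the lowest levels per transcript length of the survival members, at 9.55 and 0.0841 FPKM in the controls. FPKM are here TMM-scaled CPM divided by the gene length of the table in kilobases. Bcl2l1, which encodes BCL-XL (chr2:152780668-152831728, minus strand), had 44.0 and 43.7 CPM in the controls and 56.3 and 48.8 CPM in the tumor libraries. Both tumor values were higher but differed from each other by more than the lower of them differed from the controls. The log2 fold change was 0.26 ± 0.0716 (adjusted p = 0.00310, edgeR), and without the first tumor library it was 0.15 (adjusted p = 0.0950).

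Bcl2 itself (chr1:106538178-106714274, minus strand) was the scarcest member, with 17 and 10 counts in the controls and 34 and 41 in the tumor libraries. In CPM these were 0.907 and 0.634 against 1.96 and 2.09, so all libraries were above the floor and the groups were apart. Its log2 fold change of 1.37 ± 0.382 was the largest of the members (adjusted p = 0.00333, edgeR) and rested on few counts. Without the second control library it was 1.14 (adjusted p = 0.0560).

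Per transcript length, the make-up of the 5 survival members shifted from Bcl2a1d towards Mcl1. Bcl2a1a, at 165.7 FPKM in the controls and 112.3 FPKM in the tumor group, is no member and was left out. The shares therefore understate A1 as a whole beside Mcl1, and they also depend on how reads with several matches were treated. A share of summed FPKM within a library does not depend on how libraries are scaled. Mcl1 made up 63.4% and 61.4% of the summed FPKM of the 5 survival members in the controls, and 69.8% and 70.1% in the tumor libraries. Bcl2a1d made up 28.4% and 29.4% against 21.4% and 21.6%. For both genes the groups did not overlap. The share of Bcl2a1b was 7.71% ± 0.747 (SD, n = 2) in the controls and 7.23% ± 0.146 in the tumor group, with overlapping values. Bcl2l1 held 1.01% ± 0.0109 against 1.33% ± 0.144, and Bcl2 0.00889% ± 0.00228 against 0.0256% ± 0.000931. The summed survival FPKM was 943.1 and 951.0 in the controls and 859.8 and 869.2 in the tumor libraries.

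**Figure D2:**
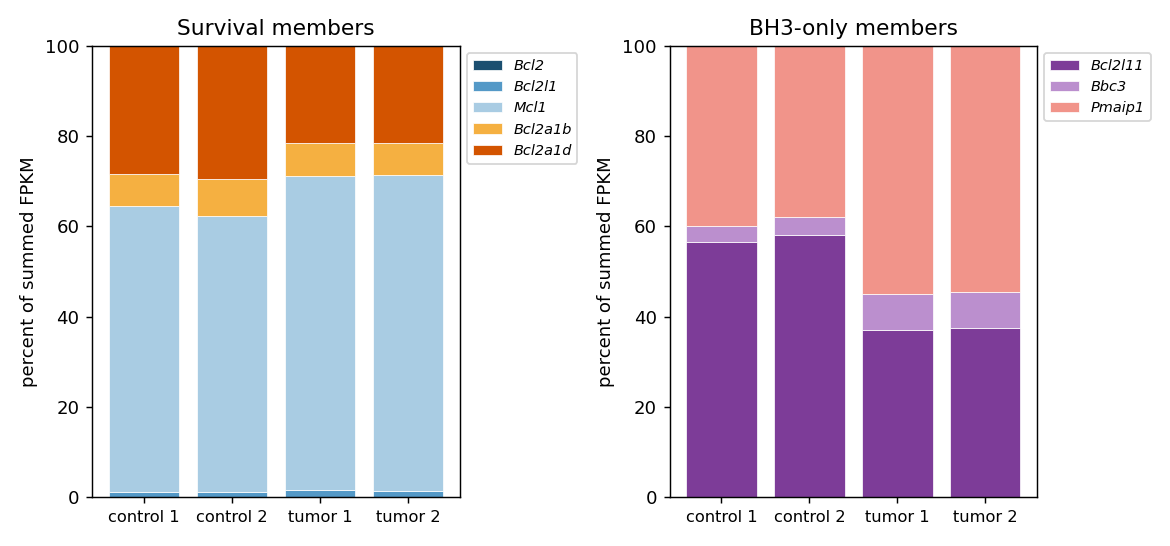
Stacked bars give the percent of summed FPKM that each gene holds within the survival members (left) and the BH3-only members (right), 1 bar per library. Mcl1 rises from 62.4% to 69.9% of the survival pool on average, and within the BH3-only pool Bcl2l11 goes from 57.3% to 37.2% while Pmaip1 goes from 39.0% to 54.8%.

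The effector genes, whose products form the pores, differed from each other. Bax (chr7:45461697-45466898, minus strand) had 60.2 and 58.9 CPM in the controls and 48.5 and 49.2 CPM in the tumor libraries. The groups were apart, and the log2 fold change was −0.29 ± 0.0618 (adjusted p = 0.000268, edgeR). Scaled on the AM identity genes instead, Bax was higher (0.15, adjusted p = 0.0317). Bak1, which encodes BAK (chr17:27019810-27029009, minus strand), had 59.8 and 62.9 CPM against 61.5 and 63.2 CPM. It was the member whose groups overlapped, and its log2 fold change of 0.03 ± 0.0582 did not pass the test (adjusted p = 0.740). The ratio of Bax to Bak1 in FPKM, which does not depend on the scaling, was 1.54 and 1.43 in the controls and 1.20 and 1.19 in the tumor libraries. With 2 libraries against 2 no permutation test of such a ratio can give a p below 0.333, so the ratios are descriptions.

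All 3 BH3-only genes passed the test, and they went opposite ways. Bcl2l11, which encodes BIM, a potent killer that binds all survival proteins (chr2:128126038-128162547, plus strand), had 291.9 and 288.2 CPM in the controls and 172.2 and 171.0 CPM in the tumor libraries. Within each group the libraries were nearly equal, and tumor values were lower in both. The fall of 40.8% (log2 fold change −0.76 ± 0.0319, adjusted p = 9.24e-18, edgeR) had the smallest adjusted p of the members.

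Bbc3, which encodes PUMA, a classical p53 target (chr7:16308393-16318205, plus strand), had 87 and 84 counts in the controls and 170 and 190 in the tumor libraries. In CPM these were 4.64 and 5.32 against 9.82 and 9.68. Both tumor libraries were higher, by 96.3% on average in the fit (log2 fold change 0.97 ± 0.163, adjusted p = 1.04e-05, edgeR). Pmaip1, which encodes NOXA, the BH3-only protein that binds MCL1 and A1 (chr18:66458604-66465550, plus strand), had 68.0 and 62.0 CPM against 84.5 and 82.2 CPM. It too was higher in both tumor libraries (log2 fold change 0.36 ± 0.0550, adjusted p = 3.36e-06).

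By the gene lengths of the table, Bcl2l11 and Pmaip1 exchanged rank within the BH3-only pool. Bcl2l11 held 56.6% and 58.0% of the summed BH3-only FPKM in the controls and 37.0% and 37.4% in the tumor libraries, while Pmaip1 held 40.0% and 37.9% against 55.1% and 54.6%. Bbc3 held 3.40% and 4.05% against 7.97% and 8.01%. The groups were apart for all 3 genes. The ratio of Bcl2l11 to Bbc3 was 15.5 ± 1.64 (SD, n = 2) in the controls and 4.66 ± 0.0228 in the tumor group, and that of Mcl1 to Bcl2l11 was 16.4 ± 0.136 against 28.3 ± 0.431. With the longest coding transcript of each gene as its length, the ratio of Mcl1 to Bcl2l11 was 10.3 against 17.7. Mcl1 relative to Pmaip1 went the other way, from 24.1 ± 1.15 to 19.2 ± 0.580.

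Sums over the roles hid these exchanges. Survival FPKM over BH3-only FPKM was 14.7 and 15.4 in the controls and 14.8 and 15.3 in the tumor libraries, so the groups overlapped. Survival over effector FPKM was 14.95 and 14.98 against 15.3 and 15.1, apart by a small margin. These ratios depend on the lengths used: with the length of the longest coding transcript of each gene in GENCODE M21, a choice made after seeing the data, the first was 11.1 and 11.6 in the controls and 12.3 and 12.6 in the tumor libraries, which did not overlap. With those lengths Bcl2l11 remained the larger part of the BH3-only pool in both groups, at 68.4% in the controls and 48.7% in the tumor group, and Pmaip1 went from 28.3% to 43.7%.

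The order of the members by FPKM in the controls was Mcl1 (590.8 FPKM), Bcl2a1d (273.6 FPKM), Bcl2a1b (73.0 FPKM), Bax (37.8 FPKM), Bcl2l11 (36.1 FPKM), Bak1 (25.5 FPKM), Pmaip1 (24.6 FPKM), Bcl2l1 (9.55 FPKM), Bbc3 (2.35 FPKM) and Bcl2 (0.0841 FPKM). Bak1 and Pmaip1 overlapped between the 2 control libraries and every other pair of neighbours was apart. In the tumor group Mcl1 (604.6 FPKM), Bcl2a1d (185.8 FPKM) and Bcl2a1b (62.5 FPKM) still led, and Pmaip1 (31.5 FPKM) and Bax (31.0 FPKM) followed with overlapping values. Bak1 (25.9 FPKM), Bcl2l11 (21.4 FPKM), Bcl2l1 (11.5 FPKM), Bbc3 (4.59 FPKM) and Bcl2 (0.221 FPKM) came next, each apart from its neighbour. By these lengths Bcl2l11 was 2 places lower in the tumor group and Pmaip1 3 places higher. With the longest coding transcript lengths Bcl2l11 was in place 4 in the controls and 5 in the tumor group and Pmaip1 in places 7 and 6, so the order of the middle members depends on the lengths.

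Because the AM identity genes were themselves lower, the members were also scaled on them. The scaling factor of each library was the median, over those genes, of the count relative to the gene's geometric mean across libraries. With this scaling the share of higher genes among those called went from 53.9% to 91.6%. The median log2 fold change over all genes went from 0.02 to 0.46. Mcl1 (0.47) and Bak1 (0.47) then stood at that median and passed the test as higher. Bcl2l11 (−0.32, adjusted p = 4.54e-09, edgeR) and Bcl2a1d (−0.12, adjusted p = 0.00554) were still lower, whereas Bcl2a1b (0.22) and Bax (0.15) reversed to higher, though both stayed below the median of all genes. Bcl2 (1.81), Bbc3 (1.41), Pmaip1 (0.79) and Bcl2l1 (0.70) stayed higher. Relative to AM identity transcripts, 8 members were thus higher and 2 lower.

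**Figure D3:**
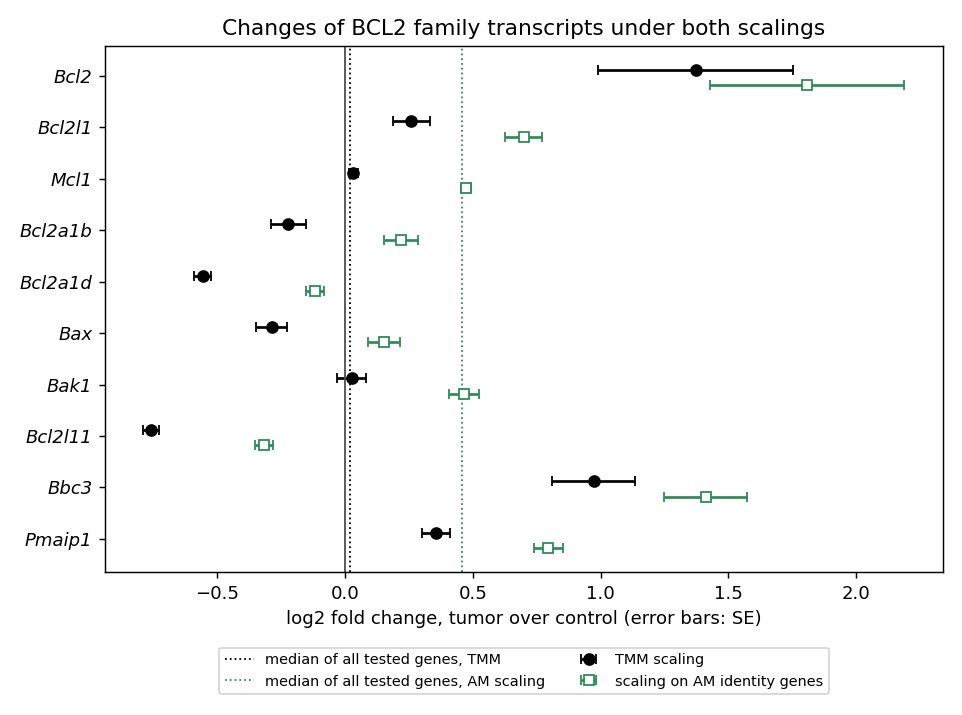
Log2 fold change of tumor over control with its SE for each gene, under TMM scaling (filled circles) and scaling on AM identity genes (open squares); dotted lines mark the median of all tested genes, 0.02 and 0.46. Bcl2l11 and Bcl2a1d stay below 0 under both, and Bcl2a1b and Bax cross it.

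The promoters of the BH3-only genes that differed most are shown because Bcl2l11 and Bbc3 share known regulators, the FOXO factors, and because the aryl hydrocarbon receptor (AHR) is the receptor this study is about. Windows of the 250 bases before each start were taken from RefSeq (GRCm38.p6) and 9 of the 10 members had at least 1 (14 windows). For each of these genes the window nearest the start of its longest coding transcript is printed, with the AHR core GCGTG and the FOXO motif TGTTTAC in capitals, each on either strand. In Bcl2l11 the FOXO match overlaps an AHR core. The Bcl2l11 stretch is chr2:128125788-128126037 on the plus strand, and the Bbc3 stretch, which touches no annotated exon of the gene, is chr7:16309333-16309582 on the plus strand.
Bcl2l11: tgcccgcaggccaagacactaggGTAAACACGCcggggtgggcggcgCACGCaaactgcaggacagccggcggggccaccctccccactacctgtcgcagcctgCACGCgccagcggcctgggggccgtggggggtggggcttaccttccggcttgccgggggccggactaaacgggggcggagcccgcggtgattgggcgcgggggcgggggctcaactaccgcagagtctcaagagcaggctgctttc
Bbc3: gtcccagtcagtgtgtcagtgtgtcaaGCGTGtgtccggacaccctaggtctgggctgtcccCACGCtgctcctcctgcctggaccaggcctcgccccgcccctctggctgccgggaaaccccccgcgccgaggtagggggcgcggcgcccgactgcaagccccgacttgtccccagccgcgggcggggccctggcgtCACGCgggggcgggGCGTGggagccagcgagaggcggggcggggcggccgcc

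The printed Bcl2l11 window held 3 AHR cores and 1 FOXO match, and the printed Bbc3 window held 4 AHR cores and 0 FOXO matches. The other Bcl2l11 window, before another RefSeq start, held neither motif. Of the other Bbc3 windows 1 held a FOXO match and an AHR core and 1 held an AHR core. Over the 14 member windows the AHR core was in 7, among them 1 window each of Bcl2l1, Bcl2a1b and Bcl2a1d, and the FOXO motif in 2. The AHR core occurred in 28.1% of all 32817 windows and in 59.4% of the 3035 windows with at least 70% GC, and both printed windows are of that kind (72.0% and 76.4% GC), as are 6 of the 14 member windows. The FOXO motif occurred in 3.16% of all windows and in 0.725% of those rich in GC. The STAT5 motif TTCNNNGAA, present in 7.01% of all windows and 1.29% of those rich in GC, was in 0 of the 14 member windows, and the NF-kB motif, present in 7.25% of all windows and 12.8% of those rich in GC, was in 2 of them, with 2 overlapping matches in the printed Bbc3 window and 1 match in a Bcl2l1 window. A match describes letters and is no evidence of binding.

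In the wider apoptosis pathway, 75 other genes were listed by role, and 67 of them were tested. Of these, 25 were higher, 19 were lower and 23 did not pass the test, so 65.7% passed, against 53.8% of all genes. Their median log2 fold change was 0.04. Scaling on the AM identity genes gave 51 higher and 6 lower, and the genes lower under both were Bcl2a1a, Cflar, Phlda3, Aen, Huwe1 and Usp9x. The 25 higher genes were higher under both. The lists and the members were chosen with earlier results of these data known.

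Among other members of the family, both tested survival genes were lower. Bcl2l2, which encodes BCL-W, had a log2 fold change of −0.56 ± 0.107 (adjusted p = 6.33e-05, edgeR), but did not pass with scaling on the AM identity genes (−0.12). Of 3 tested effector-like genes, Bcl2l13 was lower (−0.33 ± 0.0647; 0.11 and not past the test with AM scaling) and Bcl2l15 was at or below 1 count in the controls and at 19 and 39 counts after inoculation, a difference of at least 5.77-fold, higher. Of 3 tested other BH3-only genes, 2 were higher: Bid, which links death receptors to mitochondria, rose from 1.95 ± 0.870 CPM (SD, n = 2) to 7.76 ± 0.378 CPM (log2 fold change 1.96 ± 0.232, adjusted p = 3.68e-08), and Bmf rose from 20.5 ± 3.45 to 36.8 ± 1.75 CPM. Bad was at 16.3 ± 0.872 and 17.1 ± 2.66 CPM and did not pass. Bcl2l10, Bcl2a1c, Bcl2l14, Bik and Hrk were at or below 3 counts in all libraries. Of the 3 BH3 mitophagy genes, 2 were higher, with Bnip3, a mitophagy receptor, at 0.58 ± 0.138.

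Downstream of the pores, genes of the apoptosome and of the inhibitors of apoptosis held changes both ways. Of 7 apoptosome and released-factor genes, Apaf1, the apoptosome scaffold, rose from 59.9 ± 3.71 to 91.1 ± 1.95 CPM, while Endog, a mitochondrial nuclease (−0.71 ± 0.195), and Cycs, cytochrome c (−0.44 ± 0.0696), were lower; neither passed with AM scaling. Of 5 genes for inhibitors of apoptosis 2 were higher, Birc3 from 117.9 ± 2.20 to 250.5 ± 4.80 CPM and Birc2 from 30.6 ± 1.45 to 64.4 ± 0.863 CPM, and 2 were lower. The larger of those falls was in Birc6, at −0.38 ± 0.0307, which was 0.06 and not past the test with AM scaling.

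At the death receptor, Cflar, which encodes the caspase-8 inhibitor c-FLIP, fell more than any other gene in these lists. Cflar had 619.2 and 614.0 CPM in the controls and 214.6 and 220.4 CPM in the tumor libraries (log2 fold change −1.50 ± 0.0273, adjusted p = 2.45e-26, edgeR; −1.06 with AM scaling). Tnfrsf10b, the mouse TRAIL death receptor, was scarce and rose from 0.574 ± 0.0943 to 3.57 ± 0.00905 CPM (2.61 ± 0.336). In all, 5 of 10 tested death receptor genes were higher and 3 lower. With AM scaling Cflar was the only one of those 3 still lower, and some of the other genes passed the test as higher.

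In the p53 axis, made up of Trp53, its regulators and its targets, 5 of 12 tested genes were higher and 4 lower: Trp53inp1 rose from 22.5 ± 0.0518 to 88.2 ± 4.53 CPM, while Phlda3, a p53 target, fell from 32.9 ± 3.99 to 12.3 ± 0.591 CPM. Trp53 itself was at 72.7 ± 2.68 and 50.3 ± 2.49 CPM, lower here (−0.53 ± 0.0602) but not with AM scaling (−0.09). Under that scaling only Phlda3 and Aen of the 4 lower genes stayed lower, and some of the other p53 axis genes passed the test as higher. Of 7 factors that induce BH3-only genes 4 were higher and none of the others passed the test. Foxo3, an activator of Bcl2l11 and Bbc3, rose from 35.8 ± 1.11 to 110.1 ± 5.10 CPM (1.62 ± 0.0576, adjusted p = 1.84e-19), in the libraries where Bcl2l11 was lower and Bbc3 higher. Among 4 genes for MCL1 turnover, the deubiquitinase gene Usp9x fell from 280.4 ± 0.642 to 164.6 ± 6.02 CPM and the ubiquitin ligase gene Huwe1 from 485.7 ± 7.51 to 333.2 ± 2.29 CPM. Of 6 mitochondrial partner genes 2 were lower, Vdac2 (−0.08 ± 0.0291) and the cristae GTPase gene Opa1 (−0.32 ± 0.0533); with AM scaling Vdac2 turned to 0.36 and higher and Opa1 was 0.12 and not past the test.

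**Figure D4:**
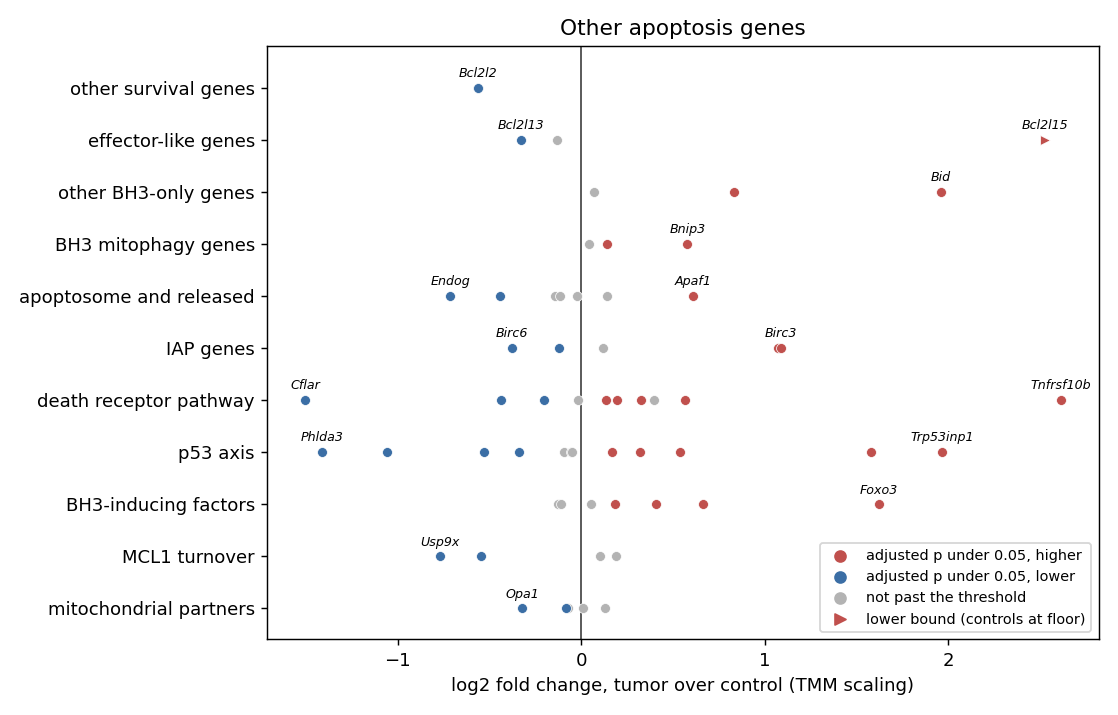
Log2 fold change of tumor over control under TMM scaling for 62 tested genes of 11 wider apoptosis lists, 1 point a gene, red where higher and blue where lower with an adjusted p under 0.05, grey otherwise; the triangle is a lower bound, for Bcl2l15. The points of Bcl2a1a and Bcl2l2 coincide, at −0.56. Cflar lies lowest, at −1.50, and Tnfrsf10b, at 2.61, highest of the genes not drawn at a bound.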

How the data were processed

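RNA-seq was measured in alveolar macrophages of 2 control and 2 tumor libraries, grouped by the titles in the labels. Per the labels, TRIzol was used for RNA extraction and a NEBNext Ultra RNA kit for the libraries. The authors aligned paired-end reads with HISAT2 2.0.5 and used featureCounts to count them. The deposited table holds these raw counts, not normalized. The genome build, strandedness and handling of multiply matching reads are not given in the sources used here, so antisense and paralogous reads may be mixed. Coordinates are GRCm38, since 98.3% of the identifiers found in GENCODE M21 had identical ones.

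Counts were tested with edgeR 4.0.16 (R 4.3.3), using filterByExpr (minimum count 10), TMM and the quasi-likelihood test with Benjamini-Hochberg adjustment over all 14256 genes kept; called means an adjusted p under 0.05. The other 40276 genes were not tested. The residual spread rested on 2 degrees of freedom. CPM and FPKM were computed from the counts, and SDs are over 2 libraries. On simulated counts for this comparison (14087 genes), 94.0% of 67 genes changed 1.5-fold, 100% of 67 changed 2-fold and 100% of 66 changed 4-fold were called in the right direction. The changed genes were drawn from the better counted ones, and all genes were given the same small spread between libraries. These rates therefore do not cover scarce genes such as Bcl2. Alternatives were other scalings (DESeq2 1.42.0 size factors, total counts, AM identity genes), other filters, DESeq2, limma-voom (limma 3.58.1), a replicate block and leaving out each library. Motifs were searched as letter patterns, with N for any base, in RefSeq promoter windows outside chromosome 18. The NF-kB pattern was GGGRNNYYCC, with R for A or G and Y for C or T.

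The members and lists were chosen with earlier results of these data known. Named were all members, and of each wider list the called genes with the largest rise and the largest fall among those averaging at least 20 counts in their higher group, or at 3 counts or fewer in all libraries. Bmf, Bad, Birc2, Cycs, Trp53, Huwe1, Aen, Bcl2a1a and Vdac2 were named after their values were seen. The genes of 1 wider list are counted in the totals but not reported here.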

Additional observations from a re-analysis of the deposited data

How the results depend on the processing

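Over 12 alternatives Bcl2a1d, Bcl2l11, Bbc3 and Pmaip1 kept their direction and call. Scaling on the AM identity genes gave 8 members called higher and 2 lower, with Bcl2a1b (0.22) and Bax (0.15) reversed and Mcl1 (0.47) and Bak1 (0.47) called. Mcl1 was also called with total counts (0.10), with at least 10 counts in every library (0.06, adjusted p = 0.00733) and with limma-voom (0.03, adjusted p = 0.0354). Leaving out 1 library, where a lone library is assumed to vary like the other group, gave log2 fold changes of −0.0214 to 0.0402 for Bak1 and −0.00493 to 0.0409 for Mcl1, turning sign without the first and the second control library respectively; the cause was not tested. The calls of Bcl2 and Bcl2a1b were lost without the second control library and that of Bcl2l1 without the first tumor library, as given above. Of all member comparisons with these settings, 109 kept direction and side of the threshold, 5 gained a call, 4 lost one and 4 changed sign. With longest coding transcript lengths the tumor shares were 69.2% for Mcl1 and 21.3% for Bcl2a1d. Over all genes, 7671 were called, and from 5858 (DESeq2) to 10262 (AM scaling) under the alternatives. With the replicate number as a block, 7446 genes and 8 members (4 higher and 4 lower) were called; same-numbered libraries did not deviate together (r = 0.0476 across 9560 genes), so the numbers were not taken as pairs. With 2 libraries a group and 17 or fewer counts of Bcl2 in the controls, precision is limited most for Bcl2.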

Other observations

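The genes whose pattern over the 4 libraries lay nearest to that of Bcl2l11, by Euclidean distance of log2 CPM centred on each gene's mean among 14255 genes, were Slfn2 (distance 0.0155), Peli1 (0.0161) and Rbbp6 (0.0196). Nearest to Bcl2 were 2810013P06Rik (0.0909), Sytl3 (0.125) and Gm20430 (0.144). All 4 libraries and the counting error of scarce genes are shared by these distances, and nothing on shared control follows from them.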
